A study of Mus musculus with 16 samples.

Results

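The genes described here encode 10 factors of cytosolic protein synthesis, taken from the 54532 genes counted in cultured mouse jejunal epithelium. They are the elongation factor genes Eef1a1, Eef1b2, Eef1d, Eef1g and Eef2, the initiation factor genes Eif3e and Eif4a1, the initiation inhibitor gene Eif4ebp1, the poly(A)-binding protein gene Pabpc1, and Tpt1. They were matched by gene symbol, and the set was chosen by the measured levels of Eef1a1 and Eef2, because Eef1a1 was lower in the MYO5B-deficient groups and Eef2 was not. The values that chose them are therefore given without a test, and the comparisons with control enteroids carry no p for these 10 genes.

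The study asked how loss of the motor protein myosin Vb alters the intestinal epithelium, and whether an agonist of the lysophosphatidic acid receptor LPAR5, Compound-1, changes that state. Polyadenylated RNA was sequenced from 16 cultures of differentiated enteroids, epithelial cultures grown from jejunal crypts of adult mice, with 4 cultures in each of 4 groups. MYO5BΔIEC enteroids carried Vil1-CreERT2 and 2 floxed Myo5b alleles, and MYO5B(G519R) enteroids carried Vil1-CreERT2 with 1 floxed allele and 1 allele with the G519R mutation, and are called G519R below. The Vil1 promoter drives the Cre in gut epithelial cells, and a 24 h exposure to 4-OH-tamoxifen at 1 µM switched it on. The treated group was MYO5BΔIEC enteroids whose differentiation medium held Compound-1, at 100 nM and over 2 days. Controls were, by the methods, enteroids of the Vil1-CreERT2 floxed mice given vehicle, while a legend describes them as from healthy littermates. Tamoxifen is named in the labels only for the induced groups, so an effect of the drug and of MYO5B loss cannot be told apart in comparisons with control. For short, the 3 groups other than control are together called MYO5B-deficient. The paper sets that term apart from the G519R point mutant, in which it describes a mutant protein as present. By a legend of the paper, the 4 cultures of a group came from 4 mice. The p-values measure the spread between these cultures.

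In translation elongation, eEF1A carries each aminoacyl-tRNA to the ribosome as a GTP complex, the eEF1B subunits recharge eEF1A with GTP, and eEF2 moves the ribosome along the mRNA. Initiation uses eIF3 as a scaffold on the small ribosomal subunit, the helicase eIF4A to open the start of the mRNA, and the cap-binding protein eIF4E, which unphosphorylated 4E-BP1 holds inactive. Many of these mRNAs, like those of the ribosomal proteins, begin with a run of pyrimidines, the TOP motif, through which mTORC1 signaling controls their translation. Growing and dividing cells, such as those of the intestinal crypt, make much use of this machinery.

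Between 27804968 and 40101729 reads were counted per culture. Levels are given in CPM, counts scaled to a common library size with edgeR's TMM method, and comparisons between genes use FPKM, which are also divided by gene length. Control culture 1 stood apart. Its mean correlation with the other controls was 0.955 on the log2 CPM scale, against 0.974 or more for the other controls, and its TMM factor was 1.00 against 0.845 to 0.879. The values of the 10 genes and the counts over whole gene lists are therefore also given without it. The counts of other factors by role are given with all controls only. Mitochondrially encoded genes took 6.41% to 10.4% of the counts in controls, with the lowest share in culture 1. They took 4.16% to 6.63% in MYO5BΔIEC, 4.20% to 5.37% in G519R and 3.79% to 6.11% in treated cultures, and the part of this in the results below was not tested.

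The epithelial label was checked against cell type markers. The 8 enterocyte markers were all detected in every culture, and Sis, Fabp1 or Apoa1 was the most abundant. Their sum was 2799 CPM in control culture 1 and 11480 to 14530 CPM in the other controls. It was 5119 to 10280 CPM in MYO5BΔIEC, 4858 to 7529 in G519R and 5090 to 6157 in treated cultures, between control culture 1 and the other controls. The members of this list went different ways. Fabp1 and Fabp2, which encode fatty acid binding proteins, had means of 3085 and 834 CPM in controls, 1044 and 330.1 in MYO5BΔIEC, 1004 and 286 in G519R and 592 and 193 in treated cultures. Vil1 and Anpep, which encode the brush border proteins villin and aminopeptidase N, lay above the controls without overlap in all 3 groups. Vil1 was at 281 to 449.5 CPM in controls and 620 to 983 CPM elsewhere, and Anpep at 156 to 174 CPM in controls and 244 to 605 CPM elsewhere. Alpi, the intestinal alkaline phosphatase gene, had means of 317 CPM in controls and 742, 669 and 932 CPM in MYO5BΔIEC, G519R and treated cultures. The 6 stem and cycling cell markers, led by Olfm4 except in MYO5BΔIEC culture 3 (Top2a), summed to 3057 to 7272 CPM in controls. Their sum was 1402 to 2528 CPM in MYO5BΔIEC, 1807 to 3196 in G519R and 838 to 2430 in treated cultures. Only control culture 1 fell inside the range of a MYO5B-deficient group for this sum. Most of the difference in the sum was in Olfm4, with means of 3743 CPM in controls and 776.5, 1212 and 673 CPM in MYO5BΔIEC, G519R and treated cultures. Some others were not lower throughout, since Lgr5, a stem cell receptor gene, had means of 183 CPM in controls and 203, 225 and 149 CPM in those groups, and Mki67, a cycling cell marker, of 352 CPM in controls and 301, 405 and 287.5 CPM. Top2a and Pcna, also markers of cycling cells, had means of 557 and 463 CPM in controls. These were 379 and 252.5 CPM in MYO5BΔIEC, 486 and 282 in G519R and 354 and 232 in treated cultures. Both genes lay below the controls without overlap in MYO5BΔIEC and treated cultures, and overlapped them in G519R. The 6 fibroblast markers summed to at most 0.956 CPM, with up to 6 of the 6 at 0, and the 6 immune markers to at most 11.3 CPM, with up to 4 at 0. Paneth cell markers summed to 3050 to 7313 CPM in controls and 2791 to 4282 elsewhere, and goblet cell markers to 1322 to 1719 CPM in controls and 1838 to 5593 elsewhere. The higher goblet sum was mainly Fcgbp, with means of 461 CPM in controls and 1229, 1238 and 2122 CPM in MYO5BΔIEC, G519R and treated cultures, while Agr2 lay below the controls without overlap, at 206 to 291 CPM in controls and 112.5 to 178 CPM elsewhere. The mean of Tff3 was 639 CPM in controls and 441, 423 and 550.3 CPM in those groups. Enteroendocrine markers summed to 391.9 to 482.7 CPM in controls, 432 to 873 in MYO5BΔIEC, 482.8 to 601 in G519R and 281 to 1174 in treated cultures, and tuft cell markers to at most 64.9 CPM, in control culture 1. The part of these cell types in the results was not tested, and in such bulk RNA fewer cells of a type and less RNA per cell cannot be told apart.

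The targeted gene Myo5b (ENSMUSG00000025885) was at 160, 230, 191 and 176 CPM in control cultures 1 to 4. It was at 135, 109, 169 and 101 CPM in MYO5BΔIEC, at 139, 153, 173 and 136 CPM in G519R, and at 149, 106, 87.2 and 101 CPM in treated cultures. The ranges of MYO5BΔIEC and G519R overlapped that of the controls, and the treated range lay below it. The log2 fold change against control was -0.55 (± 0.19 SE, adjusted p = 0.0503 in edgeR) in MYO5BΔIEC, -0.33 (± 0.14 SE, adjusted p = 0.109 in edgeR) in G519R and -0.77 (± 0.19 SE, adjusted p = 0.0146 in edgeR) in treated cultures. Without control culture 1 these were -0.63, -0.37 and -0.82. Counts over the whole gene would take in transcripts that lack only the floxed part, as well as transcripts of the G519R allele.

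Eef1a1 (ENSMUSG00000037742, GRCm38 chromosome 9, 78478449 to 78489151, minus strand), which encodes the main eEF1A of most tissues, took 1.34% to 1.52% of all counts in controls. By FPKM it ranked between 1 and 4 there, with mitochondrially encoded genes left out of the ranking. Its level was 13358, 15770, 17813 and 17894 CPM in control cultures 1 to 4, and 7591, 6801, 7099 and 9788 CPM in MYO5BΔIEC. It was 7967, 7772, 6950 and 9659 CPM in G519R and 7824, 10215, 6306 and 7773 CPM in treated cultures. Every MYO5B-deficient culture lay below every control, and control culture 1 was the lowest control. The log2 fold change against control was -1.05 (± 0.20 SE) in MYO5BΔIEC, -1.003 (± 0.18 SE) in G519R and -1.01 (± 0.21 SE) in treated cultures. Without control culture 1 these were -1.13, -1.05 and -1.07. Even at the lower level, Eef1a1 kept a rank of 1 to 4 in the same ranking in the MYO5B-deficient cultures, with 0.641% to 1.02% of the counts. Eef1a2, which encodes the eEF1A of neurons and muscle, had a mean of at most 0.0150 CPM in any group and was not tested.

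Eef2 (ENSMUSG00000034994, chromosome 10, 81176631 to 81182498, plus strand) was at 3769, 2500, 2772 and 2665 CPM in controls. It was at 3819, 3398, 3040 and 3727 CPM in MYO5BΔIEC, at 3733, 3553, 3402 and 3877 CPM in G519R, and at 3348, 4062, 3242 and 3711 CPM in treated cultures. Control culture 1 lay within the MYO5B-deficient ranges, and the other controls lay below all 12 of those cultures. The log2 fold change was 0.26 (± 0.18 SE), 0.32 (± 0.17 SE) and 0.30 (± 0.19 SE) in MYO5BΔIEC, G519R and treated cultures, and 0.41, 0.49 and 0.46 without control culture 1. Eef2k, which encodes the kinase that inhibits eEF2, was called higher in each of the 3 comparisons, with log2 fold changes of 0.58 (± 0.14 SE, adjusted p = 0.0134 in edgeR), 0.78 (± 0.13 SE, adjusted p = 0.00352 in edgeR) and 0.64 (± 0.15 SE, adjusted p = 0.0115 in edgeR).

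The promoters of 5 of the 10 genes were found in RefSeq (GRCm38.p6), those of Eef1a1, Eef1b2, Eef2, Eif4a1 and Tpt1. Those of the elongation factor genes are shown because Eef1a1 and Eef1b2 were low where Eef2 was not, and because their RefSeq starts lie within 6 bases of a transcript start in GENCODE. The RefSeq starts of Eif4a1 and Tpt1 lie 106 and 163 bases from the start of a principal transcript of each in GENCODE, and their sequences are not shown. That of Eif4a1 coincides with the upstream end of its annotated gene. Each sequence shown runs from 60 bases before the RefSeq start to 30 after it, and capitals mark 4 motifs. The first is TATAAA, the usual TATA box. A variant of it is TATATA. The cyclic AMP response element is TGACGTCA. A run of pyrimidines is CTCTTCC. These letters were picked after reading the sequences, and were searched on both strands from 250 bases before to 50 after the start. TATAAA and TATATA can share bases, and did not in these windows.
Eef1a1, chr9:78481695-78481784, minus strand: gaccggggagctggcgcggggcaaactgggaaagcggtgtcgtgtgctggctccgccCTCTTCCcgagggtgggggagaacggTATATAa
Eef1b2, chr1:63176771-63176860, plus strand: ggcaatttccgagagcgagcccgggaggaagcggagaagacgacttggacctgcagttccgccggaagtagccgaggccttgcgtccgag
Eef2, chr10:81176571-81176660, plus strand: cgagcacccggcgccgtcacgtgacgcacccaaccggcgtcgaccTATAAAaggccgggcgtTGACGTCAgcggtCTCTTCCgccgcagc
Counted from the start as position 1, CTCTTCC began at position -3 in Eef1a1 and at position 16 in Eef2. TATATA began at position 24 in Eef1a1, downstream of the annotated start, and TATAAA at position -15 in Eef2. TGACGTCA began at position 3 in Eef2. No match was found in the Eef1b2, Eif4a1 or Tpt1 windows of 300 bases, which says only that these letters are not there. For Eif4a1 and Tpt1 the place of the window is itself uncertain, because of the differing starts. Among all 27025 promoters, 14.1% held TATAAA, 5.95% TATATA, 1.78% TGACGTCA and 11.1% CTCTTCC.

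The eEF1B subunit genes differed among themselves. Eef1b2 (ENSMUSG00000025967, chromosome 1, 63176825 to 63180486, plus strand), which encodes the exchange subunit eEF1B alpha, was at 1010, 1519, 1724 and 1887 CPM in controls, and at 674, 624, 610 and 691 CPM in MYO5BΔIEC. It was at 778, 743, 538 and 923 CPM in G519R and at 597, 785, 474 and 592 CPM in treated cultures. All 12 MYO5B-deficient cultures lay below the lowest control, culture 1. Its log2 fold change was -1.23 (± 0.20 SE), -1.04 (± 0.23 SE) and -1.33 (± 0.23 SE) in MYO5BΔIEC, G519R and treated cultures, and -1.39, -1.17 and -1.46 without control culture 1.

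Eef1g (ENSMUSG00000071644, chromosome 19, 8967041 to 8978479, plus strand), which encodes the structural subunit eEF1B gamma, was at 777, 999, 1099 and 1108 CPM in controls and at 916, 795, 634 and 910 CPM in MYO5BΔIEC. It was at 956, 937, 770 and 1144 CPM in G519R, where a culture exceeded every control, and at 763, 958, 708 and 866 CPM in treated cultures. All 3 groups overlapped the controls. Its log2 fold change was -0.28 (± 0.18 SE), -0.07 (± 0.17 SE) and -0.27 (± 0.18 SE), and -0.39, -0.14 and -0.35 without control culture 1.

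Eef1d (ENSMUSG00000055762, chromosome 15, 75894205 to 75909556, minus strand), which encodes the second exchange subunit, eEF1B delta, was at 121 CPM in control culture 1 and at 253, 274 and 273 CPM in the others. It was at 163, 140, 109 and 174 CPM in MYO5BΔIEC, at 171, 162, 140 and 227 CPM in G519R, and at 128, 190, 132 and 159 CPM in treated cultures. Culture 1 alone made the control range overlap these groups. Its log2 fold change was -0.65 (± 0.26 SE), -0.40 (± 0.25 SE) and -0.60 (± 0.25 SE), and -0.86, -0.58 and -0.79 without control culture 1.

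**Figure D1:**
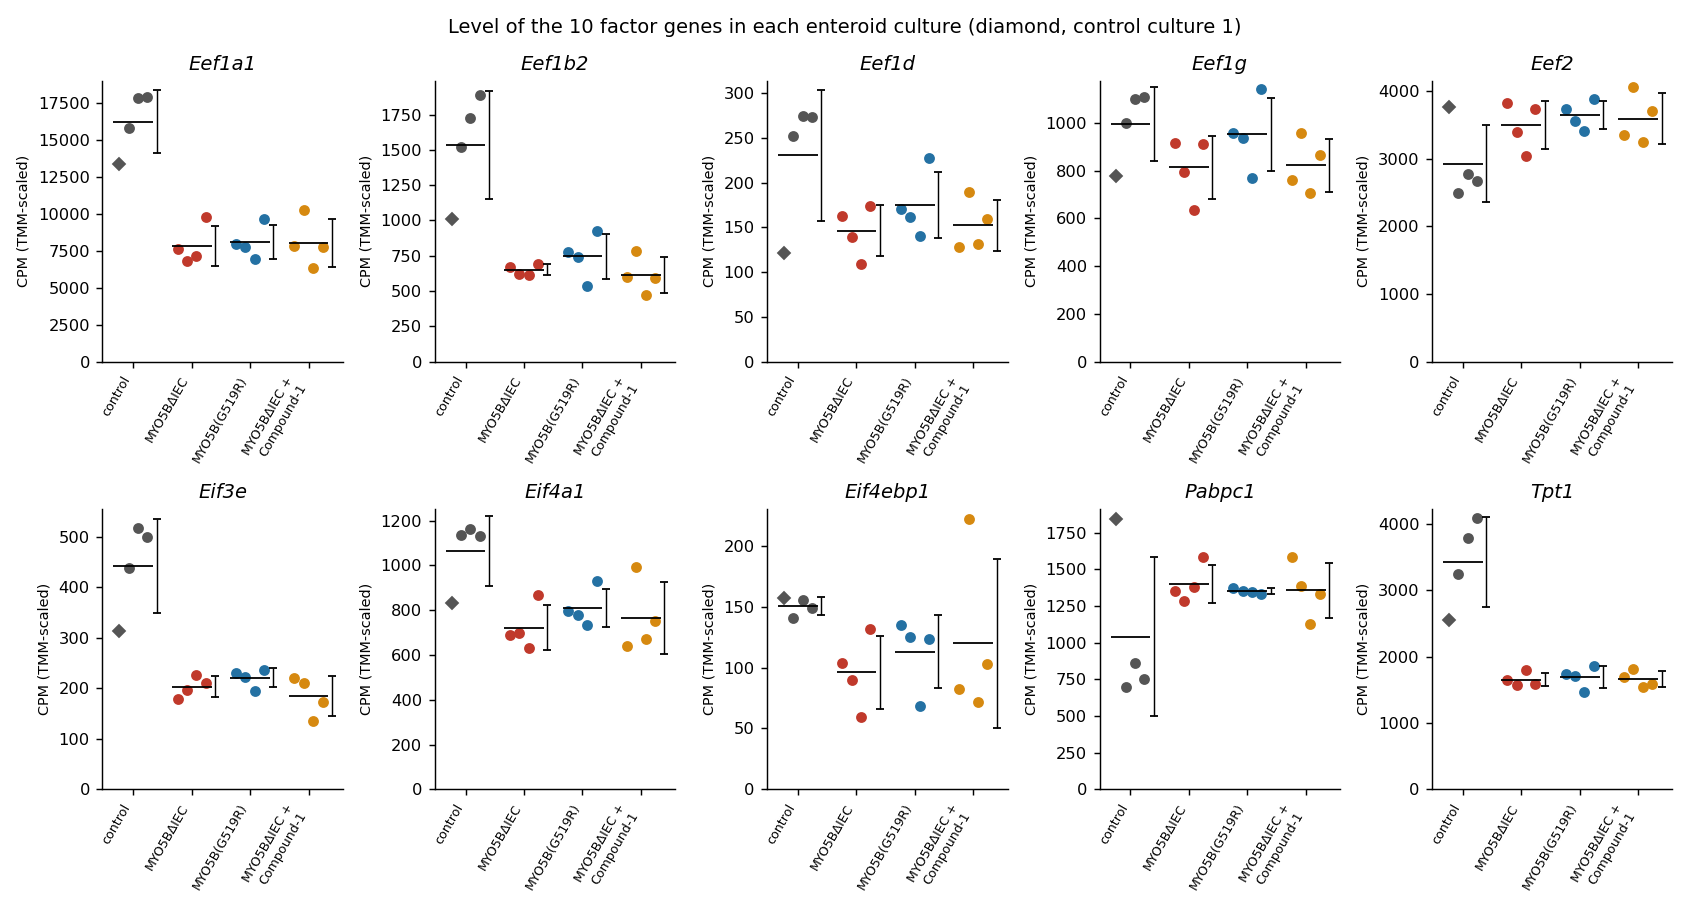
Level of each of the 10 genes in each culture, in CPM with TMM scaling, by group; points are cultures, the diamond is control culture 1, lines are means and bars are SD (n = 4). Eef1a1, Eef1b2, Eif3e and Tpt1 lay below all controls in all 12 MYO5B-deficient cultures, and Eef2 and Pabpc1 lay above the controls other than culture 1.

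The ratio between these genes was taken culture by culture. Per length, Eef1a1 over Eef2 was 4.73, 8.41, 8.57 and 8.95 in control cultures 1 to 4, as a ratio of FPKM. It was 2.65 to 3.50 in MYO5BΔIEC, 2.72 to 3.32 in G519R and 2.59 to 3.35 in treated cultures, so that no group overlapped the controls. The ratio of Eef1a1 to Eef1b2 was 13.4 in control culture 1 and 10.5, 10.5 and 9.63 in the other controls. It was 11.1 to 14.4 in MYO5BΔIEC, 10.4 to 13.1 in G519R and 13.2 to 13.5 in treated cultures. All 3 groups overlapped the controls, but without control culture 1 only G519R did. Eef1g over Eef1b2 was 0.572 to 0.749 in controls, and 1.01 to 1.32, 1.20 to 1.39 and 1.19 to 1.45 in MYO5BΔIEC, G519R and treated cultures. Eef1b2 was thus the higher of that pair in 4 of 4 controls and Eef1g in 12 of 12 other cultures. The choice of the genes used these contrasts, and these ratios are a description.

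**Figure D2:**
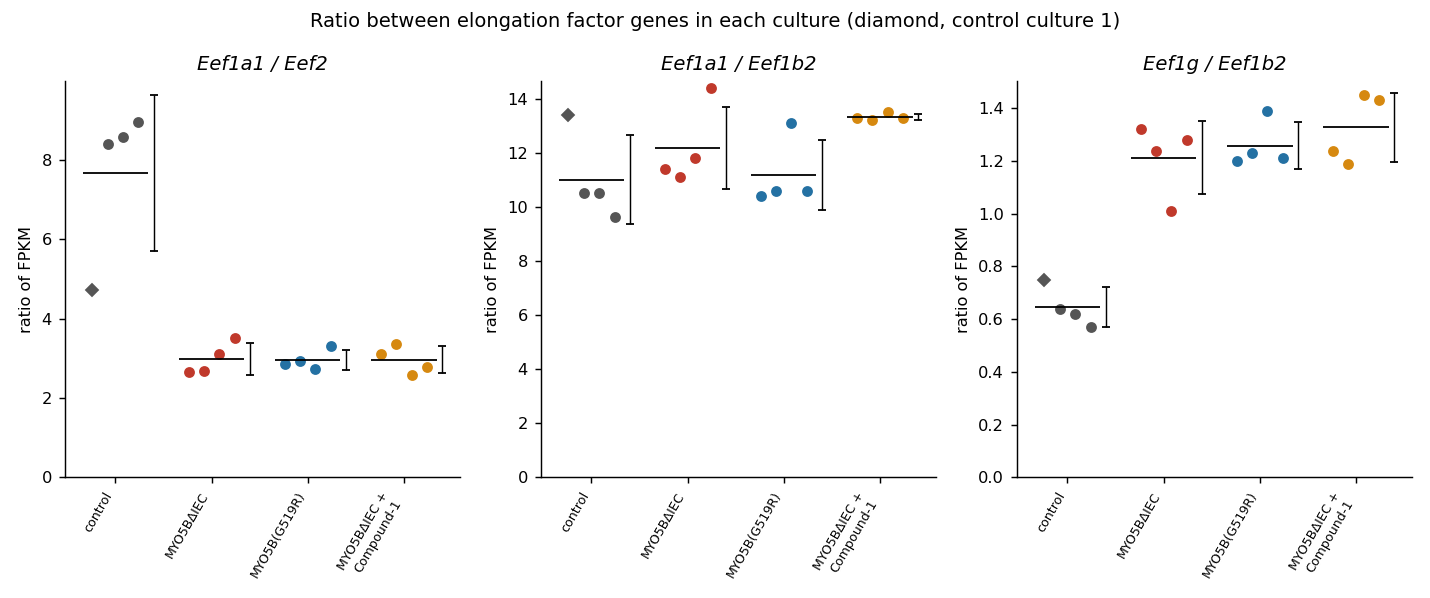
Ratios of FPKM between elongation factor genes in each culture; points are cultures, the diamond is control culture 1, lines are means and bars are SD (n = 4). Eef1a1 over Eef2 was at least 4.73 in controls and at most 3.50 elsewhere, while for Eef1a1 over Eef1b2 the overlap of MYO5BΔIEC and treated cultures with controls rested on control culture 1, at 13.4.

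Of the initiation factor genes, Eif3e (ENSMUSG00000022336, chromosome 15, 43250058 to 43282719, minus strand), which encodes an eIF3 subunit, was at 313, 439, 518.5 and 501 CPM in controls. It was at 178, 197, 227 and 212 CPM in MYO5BΔIEC, at 230, 222, 194 and 237 CPM in G519R, and at 220, 210, 134 and 172 CPM in treated cultures. No MYO5B-deficient culture reached the lowest control, which was culture 1. Against control, the log2 fold change was -1.12 (± 0.18 SE), -1.005 (± 0.17 SE) and -1.26 (± 0.22 SE), and -1.25, -1.11 and -1.38 without control culture 1.

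Eif4a1 (ENSMUSG00000059796, chromosome 11, 69666936 to 69672423, minus strand), which encodes the main eIF4A helicase, was at 832, 1138, 1164 and 1130 CPM in controls, and at 690, 698, 632 and 867 CPM in MYO5BΔIEC. It was at 798, 778, 736 and 929 CPM in G519R and at 642, 994, 674 and 750 CPM in treated cultures. A single culture of each of these groups exceeded control culture 1, and none reached the other controls. Fold changes on the log2 scale were -0.56 (± 0.17 SE), -0.40 (± 0.15 SE) and -0.48 (± 0.19 SE), and -0.66, -0.47 and -0.56 without control culture 1. The counts of Eif4a1 are uncertain, because 2 annotated pseudogenes that match its transcript at 90% identity or more over 300 bases or more held counts equal to 19.2% to 25.5% of its own. The files do not say how reads that match several places were treated. Such copies held 3.66% to 7.18% for Eef1g, 3.90% to 5.2% for Tpt1 and 0.593% to 0.922% for Eef1a1, which had 11 copies. Eif4a2, which encodes the related helicase eIF4A2, was called lower in all 3 groups, with log2 fold changes of -0.51 (± 0.15 SE, adjusted p = 0.0315 in edgeR), -0.57 (± 0.14 SE, adjusted p = 0.0139 in edgeR) and -0.71 (± 0.19 SE, adjusted p = 0.021 in edgeR).

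Eif4ebp1 (ENSMUSG00000031490, chromosome 8, 27260329 to 27276674, plus strand), which encodes 4E-BP1, was at 157, 141, 155 and 149 CPM in controls. It was at 104, 89.5, 59.4 and 131 CPM in MYO5BΔIEC, at 135, 125, 68.8 and 124 CPM in G519R, and at 82.4, 222, 72.1 and 103 CPM in treated cultures. The first 2 of these groups lay below the controls, each with 1 low culture, while treated culture 2 was the highest of all 16. On the log2 scale, the difference from control was -0.64 (± 0.21 SE), -0.41 (± 0.19 SE) and -0.33 (± 0.31 SE), and -0.62, -0.36 and -0.28 without control culture 1. Eif4ebp2, which encodes the related 4E-BP2, was called higher in all 3 comparisons, with log2 fold changes of 0.70 (± 0.24 SE, adjusted p = 0.0477 in edgeR), 0.75 (± 0.23 SE, adjusted p = 0.0351 in edgeR) and 0.75 (± 0.24 SE, adjusted p = 0.0386 in edgeR). Its controls ran from 114 to 250 CPM, with a median of 133 CPM. MYO5BΔIEC and treated cultures overlapped that range, and G519R lay above it. Eif4ebp3 had means of 0.571 to 0.860 CPM and was called in no comparison.

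Pabpc1 (ENSMUSG00000022283, chromosome 15, 36595661 to 36609668, minus strand), whose product binds the poly(A) tail and the cap-binding complex, was at 1845 CPM in control culture 1 and at 697, 864 and 752 CPM in the other controls. It was at 1350, 1284, 1381 and 1582 CPM in MYO5BΔIEC, at 1375, 1355, 1348 and 1328 CPM in G519R, and at 1581, 1387, 1127 and 1333 CPM in treated cultures. Control culture 1 was the highest of all 16 cultures and the other controls were the lowest 3. As log2 fold changes, these levels gave 0.44 (± 0.29 SE), 0.38 (± 0.29 SE) and 0.38 (± 0.30 SE) with all controls, and 0.86, 0.84 and 0.84 without control culture 1. Pabpc4, which encodes another cytosolic poly(A)-binding protein, had log2 fold changes of 0.39 (± 0.20 SE, adjusted p = 0.157 in edgeR) in MYO5BΔIEC, 0.55 (± 0.13 SE, adjusted p = 0.0134 in edgeR) in G519R and 0.53 (± 0.16 SE, adjusted p = 0.0271 in edgeR) in treated cultures.

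Tpt1 (ENSMUSG00000060126, chromosome 14, 75845093 to 75848525, plus strand) encodes TCTP, an abundant protein whose mRNA is a classical TOP mRNA. Its level was 2552, 3249, 3794 and 4095 CPM in controls. It was 1654, 1574, 1793 and 1592 CPM in MYO5BΔIEC, 1743, 1709, 1466 and 1857 CPM in G519R, and 1696, 1812, 1540 and 1589 CPM in treated cultures. The MYO5B-deficient cultures were close to each other and all lay below the controls, of which culture 1 was the lowest. In log2 fold change, this was -1.04 (± 0.19 SE), -1.01 (± 0.18 SE) and -1.04 (± 0.19 SE), and -1.16, -1.10 and -1.14 without control culture 1.

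Over the 10 genes, 5 lay below all controls without overlap in MYO5BΔIEC, 5 in G519R and 4 in treated cultures, and 0 lay above. Among all genes tested, 13.8%, 13.8% and 13.6% lay below without overlap, and 13%, 13.6% and 14.3% above. The median log2 fold change of the 10 was -0.64, -0.41 and -0.54, against -0.01, -0.05 and -0.05 for all genes tested. As the genes were chosen on these contrasts, nothing is read from this. Without control culture 1, a setting added after the values were seen, 8, 7 and 7 lay below and Eef2 and Pabpc1 above in each comparison, while the shares of all genes rose to 24.4%, 26.1% and 25.3% below and 22.5%, 23.7% and 23.6% above. The 3 comparisons share their controls and are not independent of each other. Summed, the 10 genes took 2.35% to 2.59% of the counts in controls, 1.58% to 2.05% in MYO5BΔIEC, 1.67% to 2.08% in G519R and 1.46% to 2.09% in treated cultures, with no overlap with the controls.

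**Figure D3:**
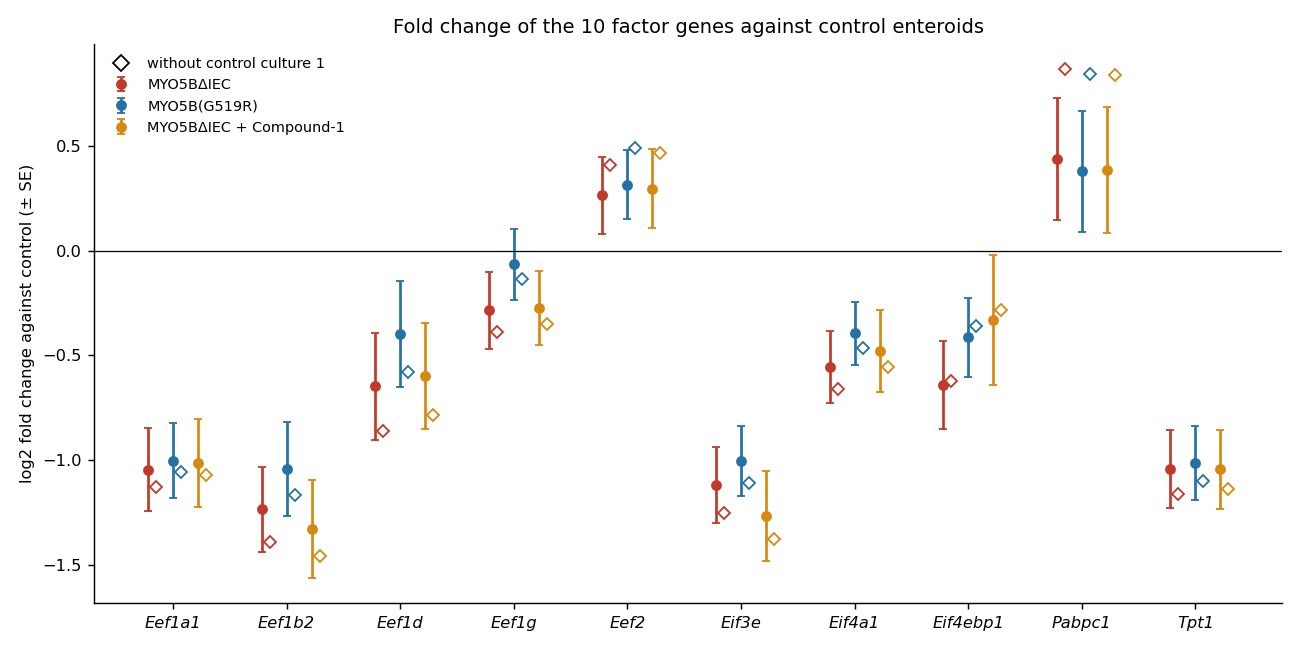
Log2 fold change of the 10 genes against control in MYO5BΔIEC, G519R and treated cultures; filled points and bars are estimates ± SE from edgeR, and open diamonds are estimates without control culture 1. Eef1a1, Eef1b2, Eif3e and Tpt1 lay at -1.003 or below in each comparison, and leaving out the culture moved Pabpc1 most, to 0.84 or more.

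Per length, the order of the genes in controls by mean FPKM was Eef1a1 (6323 ± 772, SD, n = 4), Tpt1 (1398 ± 263), Eef2 (859 ± 180), Eef1b2 (589 ± 141), Eef1g (372 ± 54.0), Eif4a1 (239 ± 33.0), Pabpc1 (155 ± 83.4), Eif4ebp1 (66.7 ± 3.84), Eif3e (64.1 ± 12.9) and Eef1d (34.5 ± 10.7). Neighbours whose control ranges overlapped were Tpt1 and Eef2, Eef1b2 and Eef1g, Eif4a1 and Pabpc1, and Eif4ebp1 and Eif3e. In MYO5BΔIEC it was Eef1a1 (3118 ± 506), Eef2 (1047 ± 102), Tpt1 (691 ± 39.6), Eef1g (312 ± 49.4), Eef1b2 (255 ± 13.3), Pabpc1 (213 ± 17.2), Eif4a1 (166 ± 22.1), Eif4ebp1 (43.5 ± 13.3), Eif3e (30.1 ± 3.02) and Eef1d (22.5 ± 4.31). The ranges of Eef1g and Eef1b2 overlapped there, as did those of Eif4ebp1 and Eif3e, and of Eif3e and Eef1d. Eef2 stood above Tpt1 in 1 of 4 controls, culture 1, and in 12 of 12 other cultures. The deposited gene lengths are 6719 bases for Eif3e, 6488 for Eef1d and 6540 for Pabpc1, against 1506, 2312 and 2817 bases for a principal transcript of each in GENCODE, and a longer gene length gives a lower FPKM.

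The other translation factors were taken from a list of 76 genes. Of these, 75 were in the count table, and 74 passed the filter on low counts, all but Eef1a2. In MYO5BΔIEC, 6 were called higher and 23 lower than in controls by edgeR at an adjusted p under 0.05, beside 13.5% and 13.8% of all genes tested. In G519R these were 7 and 24, beside 13.1% and 13.7%, and in treated cultures 8 and 22, beside 15.7% and 13.7%. The median log2 fold change of the list was -0.23, -0.17 and -0.18, against -0.01, -0.05 and -0.05 for all genes. Without control culture 1 the list held 12 higher and 25 lower, 15 and 27, and 14 and 23. In that setting more of all genes were called as well, with 21.2%, 24% and 22.9% higher and 20.8%, 22.1% and 19.2% lower. Other single cultures moved the counts down. The 6 called higher in MYO5BΔIEC were 3 without control culture 2, 3 or 4 or MYO5BΔIEC culture 1 or 2. In treated cultures the 8 called higher were 5 without control culture 4 or treated culture 4, and the 22 called lower were 13 without control culture 3 and 12 without treated culture 4.

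By role, the eIF3 genes other than Eif3e are taken first. Eif3m had a log2 fold change of -1.07 (± 0.15 SE, adjusted p = 0.00169 in edgeR) in MYO5BΔIEC, -1.01 (± 0.13 SE, adjusted p = 0.00196 in edgeR) in G519R and -1.12 (± 0.19 SE, adjusted p = 0.00468 in edgeR) in treated cultures. Eif3h, Eif3i and Eif3k were also called lower in all 3, with log2 fold changes from -0.74 (Eif3h in G519R) to -1.10 (Eif3k in treated cultures). Eif3b, which encodes a scaffold subunit of the complex, was called higher in G519R at 0.69 (± 0.14 SE, adjusted p = 0.00651 in edgeR) and in treated cultures at 0.58 (± 0.14 SE, adjusted p = 0.0139 in edgeR), and was at 0.46 (± 0.16 SE, adjusted p = 0.0503 in edgeR) in MYO5BΔIEC. Of the 13 eIF3 genes tested, 9 were not called in MYO5BΔIEC, among them Eif3a, Eif3c, Eif3d, Eif3f and Eif3g. Those called there, Eif3h, Eif3i, Eif3k and Eif3m, were all lower. Of all genes tested, 13.8%, 13.7% and 13.7% were called lower in MYO5BΔIEC, G519R and treated cultures, and 13.5%, 13.1% and 15.7% higher.

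Of 4 genes named for eIF2, 3, 2 and 3 were called lower and 0 higher, beside 13.8%, 13.7% and 13.7% of all genes lower. The eIF2 complex brings the initiator tRNA, and Eif2a, among the 4, does not encode a subunit of it. Eif2s2 was at -0.73 (± 0.19 SE, adjusted p = 0.0169 in edgeR), -0.86 (± 0.14 SE, adjusted p = 0.00333 in edgeR) and -0.60 (± 0.18 SE, adjusted p = 0.0345 in edgeR) in MYO5BΔIEC, G519R and treated cultures, and Eif2s1 was called lower in the same 3. Of 4 eIF2 kinase genes, Eif2ak1, Eif2ak2 and Eif2ak4 were not called, and 13.5%, 13.1% and 15.7% of all genes tested were called higher. Eif2ak3, which encodes PERK, the endoplasmic reticulum kinase of eIF2 alpha, was called higher, at 0.84 (± 0.13 SE, adjusted p = 0.00234 in edgeR), 0.72 (± 0.13 SE, adjusted p = 0.00521 in edgeR) and 1.39 (± 0.26 SE, adjusted p = 0.00593 in edgeR). Its means were 19.4 CPM in controls, 34.7 in MYO5BΔIEC, 31.9 in G519R and 50.9 in treated cultures.

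The complex eIF4F binds the mRNA cap, and 11 genes tested were grouped with it, not all of which encode its subunits. In each comparison 2 of the 11 were called higher and 2 lower, and the other 7 were not called, among them Eif4g2, Eif4e2 and Eif4e3. Of all genes tested, 13.5%, 13.1% and 15.7% were called higher and 13.8%, 13.7% and 13.7% lower, and 2 of 11 is near these shares, so the values below describe single genes and not the complex. Eif4g3, a scaffold gene, rose with log2 fold changes of 0.92 (± 0.16 SE, adjusted p = 0.00306 in edgeR), 0.88 (± 0.16 SE, adjusted p = 0.0049 in edgeR) and 1.03 (± 0.20 SE, adjusted p = 0.00686 in edgeR). Eif4g1, the main scaffold gene, rose by 0.53, 0.57 and 0.65 (edgeR adjusted p = 0.0189, 0.00777 and 0.0118). Eif4e, the cap-binding subunit gene, was at -0.62, -0.52 and -0.59 (edgeR adjusted p = 0.00718, 0.0088 and 0.0155) and was called lower in all 3, like Eif4a2.

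Of 12 other elongation genes tested, 5 were called lower in each comparison and 2, 1 and 2 higher, beside 13.8%, 13.7% and 13.7% of all genes lower and 13.5%, 13.1% and 15.7% higher. The counts called higher are near that share. Eef1e1, which encodes a small protein of the tRNA synthetase complex related to eEF1B, fell by 0.99 (± 0.14 SE, adjusted p = 0.00175 in edgeR) in MYO5BΔIEC on the log2 scale. It was called lower in all 3 groups, as were Eef1akmt1 and Eef1akmt2, which encode lysine methyltransferases of eEF1A, and Dph3 and Dph5, which act in making the diphthamide of eEF2. Eef1akmt2 was at -0.95 (± 0.22 SE, adjusted p = 0.0103 in edgeR), -0.78 (± 0.23 SE, adjusted p = 0.0337 in edgeR) and -1.0 (± 0.26 SE, adjusted p = 0.0162 in edgeR). Eif5a, which encodes a factor that helps elongation through difficult stretches, was not called, with log2 fold changes of -0.21 (± 0.18 SE, adjusted p = 0.418 in edgeR), 0.02 (± 0.15 SE, adjusted p = 0.955 in edgeR) and 0.01 (± 0.18 SE, adjusted p = 0.986 in edgeR).

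The remaining roles hold few genes each, and 13.8%, 13.7% and 13.7% of all genes tested were called lower in the 3 comparisons. Of 9 termination and recycling genes, 3, 4 and 3 were called lower and 0 higher, among them Abce1, which encodes the ATPase that splits ribosomes, and Denr and Mcts1, which encode partners in recycling and reinitiation. Of 5 eIF1 and eIF1A genes, which act in start codon choice, Eif1a and Eif1ax were called lower in each comparison. Of 5 eIF2B genes, which encode the exchange factor of eIF2, 2, 2 and 1 were called lower. Of 6 genes of poly(A)-tail binding, Paip2 and Larp4 were called lower in each comparison and Pabpc4 higher in G519R and treated cultures. Of subunit-joining genes, 0 of 3 were called.

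**Figure D4:**
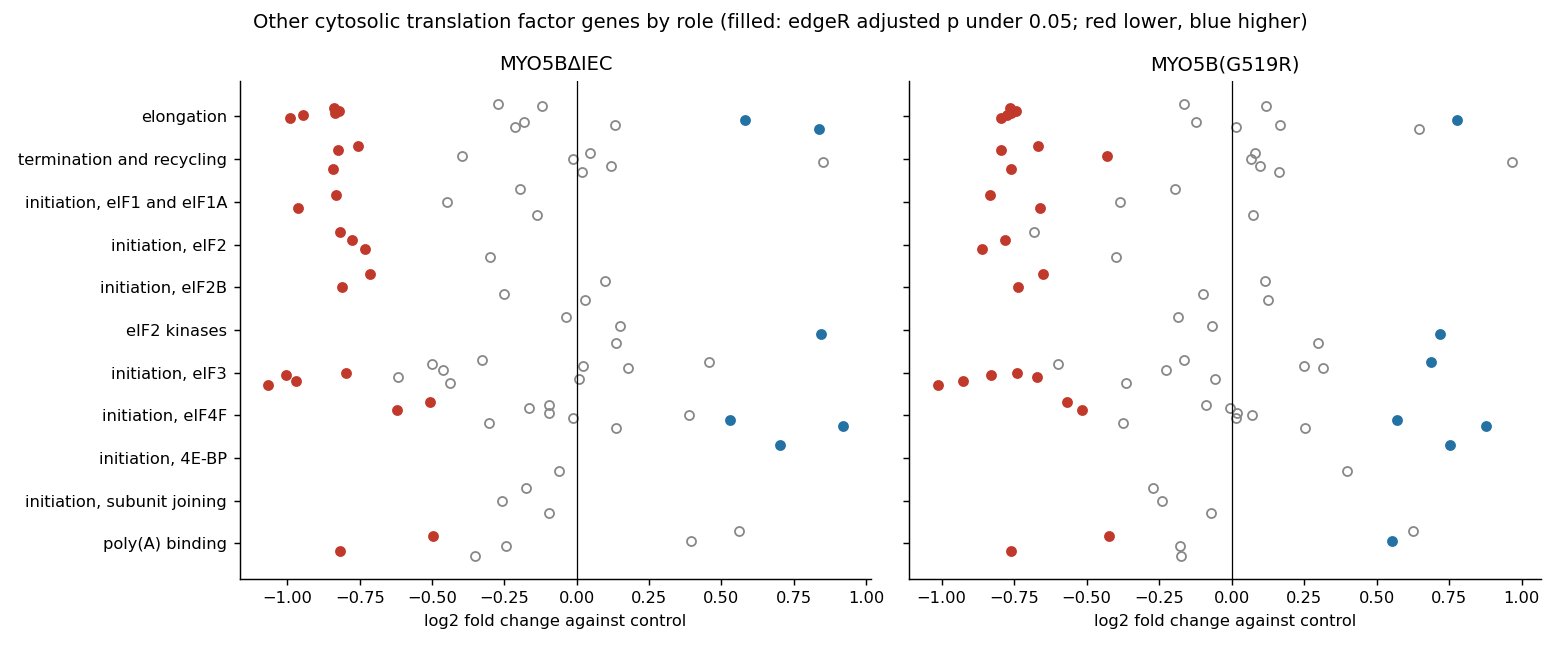
Log2 fold change against control of the 74 other cytosolic translation factor genes tested, by role, in MYO5BΔIEC and G519R enteroids; each point is a gene, filled red points were called lower and filled blue points higher (edgeR adjusted p under 0.05). In MYO5BΔIEC 23 were called lower and 6 higher, and the 6 became 3 when any of 5 single cultures was left out.

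The cytosolic ribosomal protein genes, whose mRNAs carry the TOP motif as those of several of the 10 factors do, were counted in the same way. Of 79 tested, 75 were called lower in MYO5BΔIEC, 58 in G519R and 69 in treated cultures, with median log2 fold changes of -1.34, -1.05 and -1.37. Without control culture 1, 75, 74 and 75 were called lower. A single one was called higher, Rpl26 in G519R. Among all genes tested, the shares called lower were 13.8%, 13.7% and 13.7%, and those called higher 13.5%, 13.1% and 15.7%. Of 12 other genes with TOP mRNAs, 7, 6 and 7 were called lower and 0 higher. Of 15 genes of mTORC1 signaling, which controls TOP mRNA translation, 4, 5 and 4 were called higher and 2, 2 and 1 lower, with Mtor at 0.75 (± 0.17 SE, adjusted p = 0.0109 in edgeR) and Rptor at 0.90 (± 0.17 SE, adjusted p = 0.00411 in edgeR) in MYO5BΔIEC. Rps6kb1 and Rheb, also of this signaling, went the other way, with means of 92.1 and 101 CPM in controls. These were 62.7 and 74.7 CPM in MYO5BΔIEC, 65.8 and 73.2 in G519R and 65.5 and 77.7 in treated cultures. Of 10 mitochondrial translation factor genes, 4 were called lower in each comparison and 0 higher. Without control culture 1, the TOP genes had 7 lower and 1 higher in each comparison, the mTORC1 genes had 6, 7 and 6 higher and 2, 2 and 1 lower, and the mitochondrial factors had 6, 6 and 5 lower, beside 21.2%, 24% and 22.9% of all genes higher and 20.8%, 22.1% and 19.2% lower. These lists were written with earlier results of the same cultures known and are not independent evidence.

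Long genes had higher fold changes than short genes in these comparisons. Across genes, which are not independent replicates, Spearman's rho between gene length and the log2 fold change was 0.286 in MYO5BΔIEC, 0.294 in G519R and 0.276 in treated cultures. With the trend on length removed from each library, Eef1a1 was at -0.97, -0.95 and -0.97, Eef2 at 0.24, 0.29 and 0.25, and Pabpc1 at 0.28, 0.25 and 0.22. The other factors then held 3 higher and 26 lower in MYO5BΔIEC, 8 and 27 in G519R and 8 and 25 in treated cultures, and 68, 57 and 64 of the 79 ribosomal protein genes were called lower. The mTORC1 genes then held 3, 4 and 4 higher and 2, 3 and 3 lower, and their median log2 fold change was 0.24, 0.16 and 0.16, against 0.39, 0.26 and 0.34 with the trend. The TOP genes held 8, 6 and 8 lower and the mitochondrial factors 6, 6 and 5 lower. Of all genes, 11.9%, 12% and 14.1% were then called higher and 15.4%, 15.5% and 16% lower.

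The effect of Compound-1 was asked by comparing treated with untreated MYO5BΔIEC enteroids, a contrast that the choice of genes did not use. None of the 10 genes was called, and edgeR's adjusted p was 0.924 or more, beside 0% of 18037 genes tested. At an unadjusted p under 0.05, edgeR had 1355 genes and 0 of the 10, and DESeq2 called 91 genes after adjustment and 0 of the 10. Eef1a1 had a log2 fold change of 0.01 with a 95% interval of -0.46 to 0.48 (edgeR adjusted p = 0.999). Eef2 was at 0.01 (-0.36 to 0.38, edgeR adjusted p = 0.999) and Eef1b2 at -0.12 (-0.52 to 0.29, edgeR adjusted p = 0.959). Pabpc1 was at -0.07 (-0.44 to 0.30, edgeR adjusted p = 0.975). The widest interval was that of Eif4ebp1, at 0.30 (-0.55 to 1.14, edgeR adjusted p = 0.94), where treated culture 2 was high. A change of 2-fold lay outside the interval for every one of the 10 but Eif4ebp1, and the data, with 4 cultures a group, are compatible with changes inside the intervals. Of the 74 other factors, 0 were called and 0 had an unadjusted p under 0.05 with edgeR.

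G519R and MYO5BΔIEC enteroids were likewise compared directly. Again 0 of the 10 genes were called, with adjusted p of 0.838 or more in edgeR, beside 0.00557% of 17943 genes tested, which is a single gene, BC035947. At an unadjusted p under 0.05 edgeR had 772 genes and 0 of the 10, and DESeq2 called 4 genes and 0 of the 10. Estimates were above 0 for 9 of the 10, with Eef1d highest at 0.25 (-0.18 to 0.68, edgeR adjusted p = 0.838). Eef1a1 was at 0.05 (-0.34 to 0.43, edgeR adjusted p = 0.953) and Eef2 at 0.06 (-0.25 to 0.36, edgeR adjusted p = 0.927). Of the 74 other factors 0 were called, and 1 had an unadjusted p under 0.05 with edgeR.

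**Figure D5:**
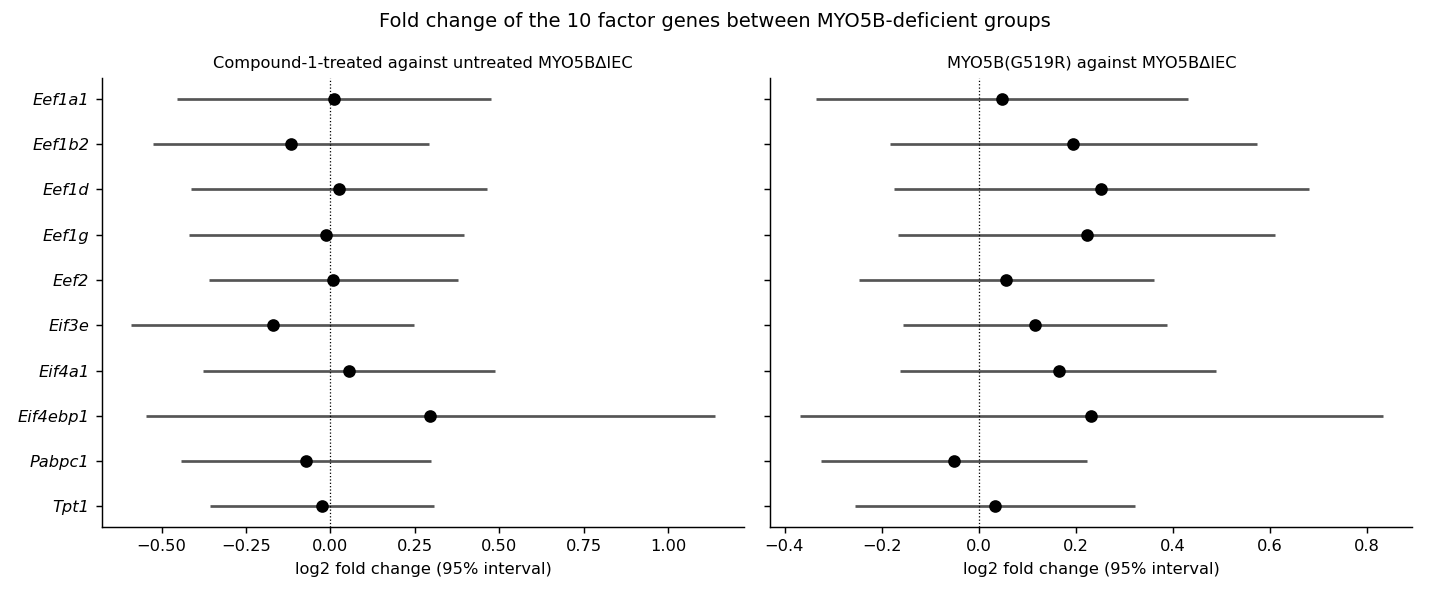
Log2 fold change of the 10 genes between MYO5B-deficient groups, with 95% intervals from edgeR (4 cultures a group); left, Compound-1-treated against untreated MYO5BΔIEC, and right, G519R against MYO5BΔIEC. All intervals include 0, and the widest, for Eif4ebp1, runs from -0.55 to 1.14.

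The genes whose levels followed Eef1a1 most closely over the 16 cultures, among 9641 genes with a mean of at least 10 CPM, were Btf3 (Pearson r = 0.993 on log2 CPM), Fcf1 (0.989) and Tfb2m (0.989). Btf3 encodes a subunit of the nascent polypeptide-associated complex, Fcf1 a factor of small ribosomal subunit assembly and Tfb2m a mitochondrial transcription factor. The genes most like Eef2 were Rangap1 (0.975), Khdrbs1 (0.964) and Stk40 (0.962), which encode a GTPase activator of nuclear transport, an RNA-binding protein and a kinase-like protein. These r share the same libraries and the same difference between control and other cultures, and are a description. Rangap1 had log2 fold changes against control of 0.33 in MYO5BΔIEC and 0.48 in G519R, and Btf3 of -0.94 and -0.88.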

How the data were processed

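RNA of 16 enteroid cultures was analyzed, 4 in each of 4 groups taken from the sample labels. By the methods and the submitters' processing notes, the authors used STAR 2.5 on GRCm38 and parsed alignments with TopHat. HTSeq 0.6.1 gave the deposited counts, which are raw. Behind the FPKM that the authors deposited are those counts, gene lengths and a library size that was 0.871 to 1.08 times the total count. Other deposited columns give gene annotation. Whether counting used strand is not given in the sources used here.

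Counts were tested with edgeR 4.0.16 in R 4.3.3, with TMM scaling, on genes that reached 10 counts in 2 or more of the 8 libraries of a comparison. P-values are from its quasi-likelihood test, adjusted by Benjamini-Hochberg over every gene tested, with a threshold of 0.05. Groups were compared 2 at a time. Intervals are 95% intervals from the fit. The log2 CPM used for correlations has a prior count of 2. Pseudogene copies were found with BLAST 2.17.0 in the GENCODE vM21 annotation. The test was also run on simulated data, and its outcome there is not given here. Depth ranged from 27804968 to 40101729 counts, where a count of 0 allows up to 3 counts, or 0.0736 to 0.111 CPM, which covers counting error only. No pair of libraries was identical.

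The members and lists were chosen with earlier results of these data known. Genes named are the 10 factors, Myo5b, 7 paralogs or regulators, the 3 other factors most increased and the 3 most decreased among those called with a mean of at least 10 CPM in each comparison, and the 3 genes most like Eef1a1 and Eef2. Further genes were named after their values were seen, to describe the roles. Alternatives were DESeq2 1.42.0, edgeR with DESeq2's size factors, library sizes without mitochondrially encoded genes, filterByExpr or no filter, a fit of all 4 groups, a replicate block, removal of the length trend, limma 3.58.1 on log2(FPKM + 1), and each library left out in turn. Counts of members outside the range of controls 2 to 4 were added after seeing the data.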

Additional observations from a re-analysis of the deposited data

Results flagged for a closer look

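With 4 cultures a group, a single culture was called far from the others when its gap to the nearest was over Dixon's 95% critical share of the group's range. Over the 10 genes and 4 groups this gave 4 cases in 40 tests, and chance gives about 1 in 20. Control culture 1 accounted for 3 of them: Eef1d was at 121 CPM there, against 253 to 274 CPM in the other controls, Eif4a1 at 832 CPM against 1130 to 1164 CPM, and Pabpc1 at 1845 CPM against 697 to 864 CPM. The 4th was Eif4ebp1 in G519R culture 3, at 68.8 CPM against 124 to 135 CPM in the other 3 cultures. The 40 tests are not independent, since the genes share the cultures.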

How the results depend on the processing

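Against control, 239 values of the members' log2 fold changes with a library left out and 270 under other settings moved by less than the spread. The 1 exception was Pabpc1 in G519R, at 0.84 without control replicate 1. Direction was scored only for genes whose group did not overlap the controls, and all of these kept theirs. Among the others, Eef1g in G519R, at -0.07 with all libraries, reached 0.02 with a library left out. With each library left out in turn, all genes called ranged from 2963 to 7474 in MYO5BΔIEC, 2880 to 8146 in G519R and 2957 to 7459 in treated cultures (4910, 4778 and 5275 with all), and from 0 to 2 between G519R and MYO5BΔIEC. The other factors called higher ranged from 3 to 12, 6 to 15 and 5 to 14, and those called lower in treated cultures from 12 to 23. The highest counts of all genes and of factors called higher against control came without control replicate 1, and the 23 called lower came both without it and without treated replicate 2. All genes called were 2983, 2880 and 2957 without control replicate 3 and 2970, 3028 and 3010 without control replicate 4. They were 2963 without MYO5BΔIEC replicate 2, 3164 and 2960 without G519R replicates 1 and 2, and 3399, 3302 and 3020 in treated cultures without control replicate 2 and treated replicates 3 and 4. The factors called higher were 3 in MYO5BΔIEC without controls 2, 3 or 4 or MYO5BΔIEC replicates 1 or 2, and 5 in treated cultures without control 4 or treated replicate 4. Those called lower there were 13 without control 3 and 12 without treated replicate 4. The single gene between G519R and MYO5BΔIEC was 0 without any of the G519R replicates or MYO5BΔIEC replicates 1 or 2, and 2 without MYO5BΔIEC replicate 3. With the length trend removed, 3 other factors were called higher in MYO5BΔIEC. DESeq2 called 91 genes between treated and untreated MYO5BΔIEC and 4 between G519R and MYO5BΔIEC, no filter 12 and 2, and limma 0 in the latter. The cause was not tested.

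Between the MYO5B-deficient groups the members' estimates lay near 0 and changed sign in 23 values with a library left out and 6 under other settings. For treated against untreated MYO5BΔIEC, Eef1a1 was at -0.0007 with the replicate block and -0.0151 with the length trend removed, Eef2 at -0.0133 with it removed, Eef1g at 0.0171 with all 4 groups and 0.0080 by limma, and Tpt1 at 0.0051 with all 4 groups. With each library left out, values ranged from -0.133 to 0.130 for Eef1a1, -0.106 to 0.113 for Eef1d, -0.117 to 0.0564 for Eef1g, -0.0617 to 0.0575 for Eef2, -0.104 to 0.148 for Eif4a1, -0.199 to 0.478 for Eif4ebp1, -0.160 to 0.0078 for Pabpc1 and -0.0743 to 0.0146 for Tpt1. For G519R against MYO5BΔIEC they ranged from -0.0462 to 0.173 for Eef1a1, -0.0794 to 0.0134 for Pabpc1 and -0.0105 to 0.10 for Tpt1.

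The cultures share replicate numbers, but deviations of same-numbered cultures correlated at -0.18 to 0.38. In no comparison did all 4 correlate best with their own number, so the numbers were not taken to pair them. For G519R against MYO5BΔIEC, however, 3 of 4 did, with correlations of 0.027 to 0.38 over the 4 numbers. In each other comparison at most 1 of 4 did. The replicate block gave 3647, 3691 and 4401 genes called against control, with 4, 7 and 7 other factors higher and 21, 22 and 19 lower, and 0 and 1 genes between the other groups.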

Other observations

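Rpl26, the gene of a large-subunit ribosomal protein and the single one of 79 called higher in G519R, was noticed after its values were seen. Its level was 25.6, 34.4, 29.99 and 42.5 CPM in controls, and 347, 335, 246 and 375 CPM in G519R. Within MYO5BΔIEC it was at 14.4 and 12.04 CPM in cultures 1 and 4 and at 301 and 364 CPM in cultures 2 and 3, and in treated cultures it was at 11.95 to 22.6 CPM.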
